A study of Mus musculus with 6 samples.

Results

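Haematopoietic cytokine receptors were followed in CD1 mouse embryos at E11.5 (embryonic day), in cells sorted from the AGM region, which holds aorta, gonad and mesonephros. A list of 9 receptor genes was drawn up: Epor, Csf2rb, Csf2ra, Il3ra, Csf3r, Il7r, Il2rg, Il6st and Lifr. A gene entered with the probe set that the platform annotation gives to it alone, and 8 of the 9 had one; Il2rg was not analysed here. These 8 stood among 19937 genes measured the same way. Collagenase-digested tissue had been sorted for cells with CD31, the product of Pecam1, and without CD45, the product of Ptprc, or Ter119, an antigen of red cells. A second division, by c-kit (the stem cell factor receptor) on the surface, gave 3 c-kit-positive and 3 c-kit-negative samples, with 1 array per sample. The labels name the replicates biological but give no number of embryos, so p-values reflect only how far these arrays spread, which may in part be technical.

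Receptors of this family have no kinase of their own. They bind a cytokine outside the cell and use Janus kinases (JAKs) held at their inner tails to phosphorylate STAT transcription factors, which then enter the nucleus. Most are built from a chain that recognises 1 cytokine and a chain shared by several cytokines: the beta common chain (Csf2rb), the gamma common chain (Il2rg) or gp130 (Il6st). In the AGM region IL-3 is known as a factor that increases stem cell activity, and LIF, which signals through Lifr and gp130, supports primordial germ cells in culture.

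Promoter windows of 300 bases, from 250 before to 50 after the annotated start, were taken from RefSeq (GRCm38.p6) for 8 of the 9 genes; Csf2rb had no entry. Those of Il7r, Csf2ra, Csf3r and Epor are shown because ETS and GATA factors of blood cells, whose genes were measured on the same arrays, bind sequences with the cores GGAA and GATA. Capitals mark AGGAAG and GATAA on either strand, where no match of one overlaps a match of the other; on the opposite strand they read CTTCCT and TTATC.
Il7r (chr15:9529827-9530126, minus strand): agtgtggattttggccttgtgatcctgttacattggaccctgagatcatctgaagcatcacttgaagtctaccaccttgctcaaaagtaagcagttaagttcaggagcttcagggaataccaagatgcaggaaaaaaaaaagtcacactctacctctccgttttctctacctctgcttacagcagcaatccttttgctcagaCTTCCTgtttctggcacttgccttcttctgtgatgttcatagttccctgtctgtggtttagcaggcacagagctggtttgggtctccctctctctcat
Csf2ra (chr19:61228369-61228668, minus strand): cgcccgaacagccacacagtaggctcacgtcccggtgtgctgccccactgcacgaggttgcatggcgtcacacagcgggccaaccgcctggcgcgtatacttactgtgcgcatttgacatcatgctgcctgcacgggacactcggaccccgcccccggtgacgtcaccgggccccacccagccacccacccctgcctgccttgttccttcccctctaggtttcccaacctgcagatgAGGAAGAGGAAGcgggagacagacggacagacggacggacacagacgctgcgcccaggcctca
Csf3r (chr4:126024409-126024708, plus strand): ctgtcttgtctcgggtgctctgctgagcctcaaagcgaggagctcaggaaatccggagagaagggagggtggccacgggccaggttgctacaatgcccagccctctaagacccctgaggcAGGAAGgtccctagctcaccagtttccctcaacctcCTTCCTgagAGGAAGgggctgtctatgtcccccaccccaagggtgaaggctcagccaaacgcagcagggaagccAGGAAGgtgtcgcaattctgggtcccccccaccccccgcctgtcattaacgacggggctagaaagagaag
Epor (chr9:21963527-21963826, minus strand): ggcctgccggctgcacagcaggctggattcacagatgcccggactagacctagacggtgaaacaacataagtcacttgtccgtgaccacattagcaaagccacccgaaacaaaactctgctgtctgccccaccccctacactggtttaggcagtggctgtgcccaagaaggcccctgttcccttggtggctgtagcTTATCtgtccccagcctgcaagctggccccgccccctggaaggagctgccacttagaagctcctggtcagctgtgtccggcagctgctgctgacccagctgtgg

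The AGGAAG motif stood once in the Il7r window, at -48 from the start, 2 times in that of Csf2ra, at -13 and -7, and 4 times in that of Csf3r, between -130 and -20. The Epor window held GATAA once, at -54, and no AGGAAG. Of the 8 genes with a window, 5 held AGGAAG (the 3 above, Il3ra and Il2rg), 2 held GATAA (Epor, and Lifr in both of its windows), and Il6st held neither. Of all 32851 RefSeq windows, 35.4% held AGGAAG and 25.4% held GATAA, so a match describes the letters and marks no site. Spi1, which encodes the ETS factor PU.1 of myeloid and lymphoid cells, was at 6.60, 7.03 and 6.84 (log2) on c-kit-negative arrays 1, 2 and 3 and at 7.38, 6.81 and 7.64 on c-kit-positive arrays 1, 2 and 3. The ranges overlapped and the difference of 0.46 did not pass (adjusted p = 0.296, limma). Gata1, the erythroid GATA factor, was at 5.23, 5.66 and 5.95 against 6.33, 6.69 and 6.19 in c-kit-positive cells, with all c-kit-positive values above the others; its difference of 0.79 missed the threshold (adjusted p = 0.0667, limma).

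The comparison set c-kit-positive cells, among which blood progenitors emerge, against the c-kit-negative remainder of the gate. Of the 8 receptors measured 1 passed the test. Il7r was lower in c-kit-positive cells by 2.31-fold, 0 of the 8 were called higher, and the other 7 did not pass the threshold of an adjusted p under 0.05 in limma. Over all genes 7.41% were called, 4.70% lower and 2.71% higher, so 1 call among 8 receptors is near the background. The median difference, c-kit-positive minus c-kit-negative, was -0.09 on the log2 scale over the 8 receptors and 0.07 over all genes. The 3 values of one population lay wholly beyond those of the other for Il7r and Il6st, 2 of 8, against 26.8% of all genes. Unadjusted p-values under 0.05 in limma were found for 3 of 8, Il7r, Il6st and Lifr, all lower in c-kit-positive cells, and for 21.0% of all genes.

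**Figure D1:**
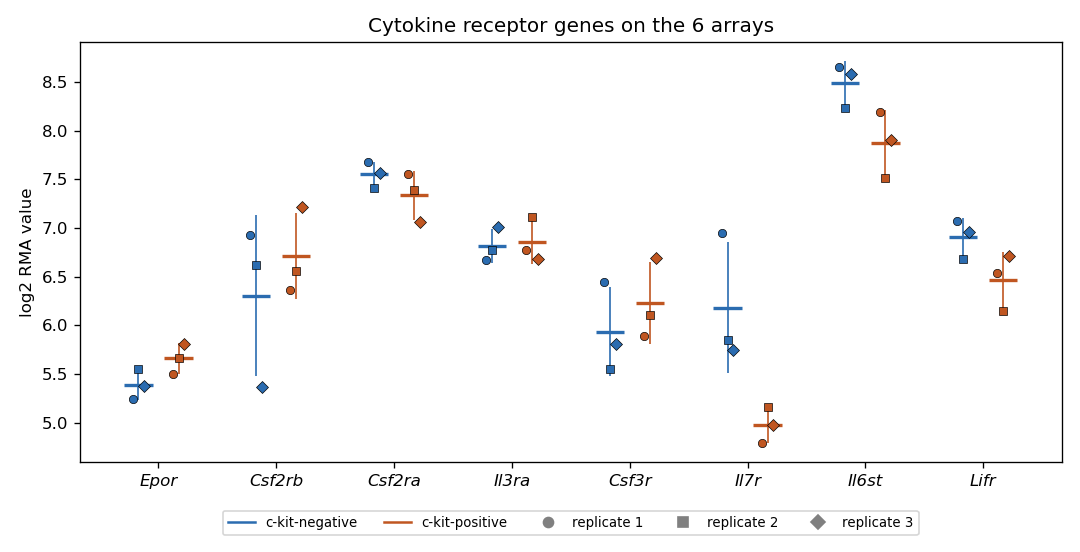
Log2 RMA values of the 8 measured receptor genes on each array, with blue for c-kit-negative and orange for c-kit-positive cells. Symbols give the replicate number, the thick bar the group mean and the thin line 1 SD on either side (n = 3 each). Only Il7r and Il6st have groups that do not overlap.

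The labels and the gate were checked on the same arrays. Kit stood at 8.27, 8.21 and 8.19 in the c-kit-negative and 9.59, 9.54 and 9.53 in the c-kit-positive arrays, higher by 1.33. Since the sort used its protein, this only checks the labels. The mean level of Kit over the 6 arrays was at percentile 93.5 of all genes, so its RNA signal was high in c-kit-negative cells too. Ptprc, the gene of the CD45 antigen that the gate excludes, stood at 9.40, 8.66 and 8.21 in the c-kit-negative and 8.37 to 8.60 in the c-kit-positive arrays. Its mean level was at percentile 92.0 of all genes, although the gate excludes CD45. Of 12 pan-leukocyte markers, genes of white blood cells in general, 6 had differences above 0. Among them 3 were called higher in c-kit-positive cells, Rac2, Dock2 and Cd48, and 0 were called lower. Pecam1, the gene of the CD31 antigen that both populations were sorted for, was at 10.04, 10.00 and 10.04 in c-kit-negative and 9.23, 8.94 and 9.21 in c-kit-positive cells, lower by a difference of -0.90 (adjusted p = 0.00597, limma). All 12 endothelial markers were called lower in c-kit-positive cells, and 11 of 12 primordial germ cell markers were called higher. In sorted bulk RNA, fewer cells of a type and less RNA per cell cannot be told apart.

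Epor encodes the erythropoietin receptor, which carries red cell progenitors through their terminal divisions. It was at 5.25, 5.55 and 5.37 in c-kit-negative cells and at 5.50, 5.67 and 5.81 in c-kit-positive cells. The c-kit-positive values were high, but the ranges overlapped, since c-kit-negative array 2 lay above c-kit-positive array 1. The difference was 0.27 ± 0.15 (log2, n = 3 each; this SE and those that follow are limma's moderated ones, which draw on the variance of all genes) with a 95% interval from -0.07 to 0.61 (adjusted p = 0.356, limma). Erythroid markers did not move one way on these arrays: of 9 measured, 3 were called lower, all of them embryonic globins, and 1 higher, the carbonic anhydrase gene Car1.

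The receptors of IL-3 and GM-CSF pair a specific alpha chain with the beta common chain. Csf2ra, the GM-CSF alpha chain of myeloid cells, was at 7.67, 7.41 and 7.56 in c-kit-negative and 7.56, 7.39 and 7.06 in c-kit-positive cells. C-kit-positive array 1 reached into the c-kit-negative range and array 3 was the lowest of the 6, and the difference was -0.22 ± 0.17 (SE; 95% interval -0.60 to 0.16; adjusted p = 0.516, limma). With 1 array left out it ran from -0.33, without c-kit-positive array 1, to -0.08, without c-kit-positive array 3. Il3ra, the alpha chain for IL-3, was at 6.67, 6.77 and 7.01 against 6.78, 7.11 and 6.68, with ranges that almost coincided. Its difference of 0.04 ± 0.17 (SE) had an interval from -0.34 to 0.42, the smallest difference among the 8 (adjusted p = 0.929, limma).

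Csf2rb, the shared beta chain, varied more between arrays of 1 population than between populations. It was at 6.93, 6.61 and 5.37 on c-kit-negative arrays 1, 2 and 3, and at 6.36, 6.56 and 7.21 on c-kit-positive arrays 1, 2 and 3. The low value of c-kit-negative array 3 set the sign of the difference, which was 0.41 ± 0.39 (SE; interval -0.49 to 1.31; adjusted p = 0.617, limma) and -0.06 without that array. Csf2rb2, the mouse paralog whose product serves the IL-3 receptor, lies beside Csf2rb with no protein-coding gene between them in RefSeq. It was at 5.66, 6.29 and 5.34 against 5.31, 5.95 and 5.70, which differed by -0.11 ± 0.26 (SE; adjusted p = 0.859, limma). These genes are close in sequence, so probes of one may also bind RNA of the other, and both values are uncertain for that reason.

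Csf3r is the receptor for G-CSF, the main growth factor of neutrophils. Values were 6.44, 5.55 and 5.81 in c-kit-negative cells and 5.89, 6.10 and 6.70 in c-kit-positive cells. Array 1 of the first group was high enough to overlap the second, and the difference of 0.29 ± 0.27 (SE; interval -0.33 to 0.92) did not pass (adjusted p = 0.603, limma). With 1 array left out it ran from 0.06, without c-kit-positive array 3, to 0.55, without c-kit-negative array 1, where the adjusted p was 0.321 (limma). Granulocyte and mast cell markers did not move one way: 7 of 12 had differences above 0, and none of these was called. Mpo, Cpa3 and Mcpt4 among them had all c-kit-positive values above the c-kit-negative ones. The other 5 were below 0 and 2 were called lower, S100a8 and S100a9. The median difference over the 12 was 0.22. The mean over the 12 was 5.61 to 5.88 in c-kit-negative and 5.37 to 5.72 in c-kit-positive cells.

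Il7r, the receptor chain for IL-7 and TSLP, marks lymphoid progenitors and is also made by fetal precursors of macrophages. It was at 6.95, 5.85 and 5.74 on c-kit-negative arrays 1, 2 and 3 and at 4.79, 5.16 and 4.97 on c-kit-positive arrays 1, 2 and 3. All c-kit-negative values were above all c-kit-positive ones, and c-kit-negative array 1 was the highest of the 6. Group means were 4.97 ± 0.18 against 6.18 ± 0.67 (SD, n = 3 each), a difference of -1.21 ± 0.30 (moderated SE; interval -1.90 to -0.52; adjusted p = 0.0491, limma). The SE from the 6 Il7r values alone, without moderation, was 0.40, and with it the call was lost (adjusted p = 0.248, limma's fit without moderation). Il7r was called lower without c-kit-negative array 1, at -0.82 (adjusted p = 0.0409, limma), and without array 3 of that population. The call was lost without c-kit-negative array 2 (adjusted p = 0.0666) or c-kit-positive array 1 (0.145), 2 (0.0853) or 3 (0.120), all in limma, while the difference stayed between -1.43 and -0.82. Over 15 alternatives in which Il7r was tested, the adjusted p ran from 0.0372 to 0.248 and 6 kept the call.

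Il7r and the macrophage markers were both highest on c-kit-negative array 1. The macrophage mean was 7.36 on c-kit-negative array 1, 6.38 on array 2 and 6.24 on array 3, and 5.72, 5.72 and 5.93 on the c-kit-positive arrays. Among c-kit-positive arrays the order differed, with Il7r highest on array 2 and the macrophage mean on array 3. All 12 macrophage markers had differences below 0, and 3 were called lower in c-kit-positive cells, against 4.70% of all genes. All 12 also had their highest c-kit-negative value on array 1. That array was not high for macrophage markers alone. Pan-leukocyte means were 7.85, 7.68 and 7.46 on c-kit-negative arrays 1, 2 and 3. Granulocyte and mast cell means were 5.88, 5.71 and 5.61. Other lists went the opposite way, with their lowest c-kit-negative mean on array 1. These were the erythroid (6.37, against 7.16 on array 3) and the megakaryocyte and platelet markers (6.85, against 7.66 on array 2). The mesenchymal and smooth muscle (6.38) and endothelial markers (8.57) were also lowest there. Lymphoid markers did not separate the populations, at means of 4.55 to 4.75 in c-kit-negative and 4.43 to 4.64 in c-kit-positive cells. Of 10 measured only Ebf1, a factor of B cell commitment, was called lower. The other B cell genes Pax5, Cd79a and Cd79b differed by 0.22, 0.32 and -0.32 and were not called. The recombinase genes Rag1 and Rag2 differed by 0.47 and 0.53, and the T cell genes Cd3d and Cd3e by 0.12 and 0.13. None of these was called. Of the 10 lymphoid markers 6 had differences above 0 and 4 below. Mean levels of Rag1, Rag2 and Cd3d were low, at percentiles 19.7, 6.7 and 10.6 of all genes. The part of macrophage or lymphoid RNA in the Il7r difference was not tested.

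Il2rg, the gamma common chain with which Il7r binds IL-7, was not analysed here. Il2rb, the beta chain that joins it in the receptors for IL-2 and IL-15, was at 5.98, 5.62 and 6.18 against 5.44, 5.13 and 5.44. Every c-kit-positive value lay below the c-kit-negative range, and the difference of -0.59 ± 0.18 (SE) did not pass (adjusted p = 0.0969, limma).

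Il6st encodes gp130, the signalling chain for IL-6, IL-11, LIF and oncostatin M. It was at 8.65, 8.23 and 8.58 in c-kit-negative and 8.19, 7.51 and 7.91 in c-kit-positive cells. The lowest c-kit-negative value exceeded the highest c-kit-positive value by little, 8.23 against 8.19. The difference was -0.62 ± 0.20 (SE; interval -1.08 to -0.16), with an unadjusted p of 0.0149 and an adjusted p of 0.119 in limma. Lifr, the LIF receptor chain that pairs with gp130, was at 7.07, 6.68 and 6.96 against 6.54, 6.14 and 6.71. C-kit-positive array 3 reached into the c-kit-negative range, and the difference of -0.44 ± 0.19 (SE; interval -0.86 to -0.01) did not pass (adjusted p = 0.227, limma). With 1 array left out it ran from -0.56, without c-kit-positive array 3, to -0.28, without c-kit-positive array 2.

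Both gp130-family chains had array 2 as the lowest of each population. The endothelial markers, all lower in c-kit-positive cells, averaged 8.57 to 8.71 and 5.80 to 6.06, and the germ cell markers averaged 6.95 to 7.12 and 8.31 to 8.51. The part of these cell types in the Il6st and Lifr values was not tested. The partner chains Il6ra, for IL-6, and Osmr, for oncostatin M, differed by -0.10 ± 0.21 and -0.35 ± 0.25 (SE), neither past the threshold (adjusted p = 0.834 and 0.475, limma).

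**Figure D2:**
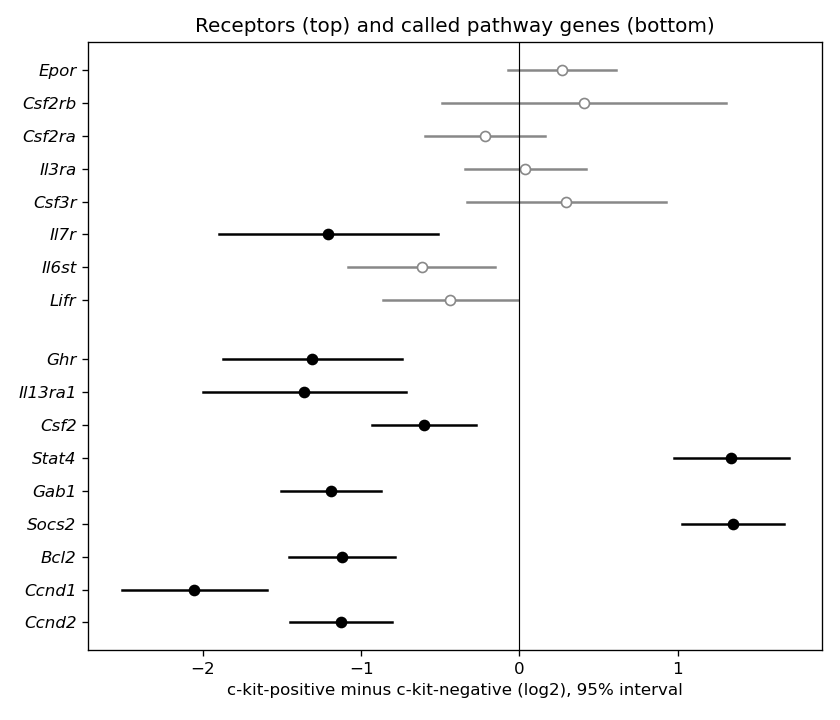
Differences in log2 value (c-kit-positive minus c-kit-negative) and their 95% intervals from limma, for the 8 receptors (top) and the called genes of the pathway lists (bottom). Filled black points passed an adjusted p under 0.05 and open grey points did not. Of the receptors Il7r alone is filled, and the intervals of Il6st and Lifr also lie below 0.

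The receptors differed in how much they varied among c-kit-negative arrays. The SDs of Csf2rb (0.82), Il7r (0.67) and Csf3r (0.46) exceeded 0.40, the 90th percentile over all genes, while those of Epor, Csf2ra and Il3ra lay between 0.13 and 0.17. Among c-kit-positive arrays the SDs of Csf2rb, Il7r and Csf3r were 0.44, 0.18 and 0.42. The median SD of the 8 receptors was 0.213 in c-kit-negative and 0.274 in c-kit-positive arrays, against 0.178 and 0.19 over all genes. Array 1 held the highest c-kit-negative value for 6 of the 8 receptors (75%), for all 12 macrophage markers and for 30.1% of all genes. The exceptions were Epor and Il3ra, which were lowest on that array. Among c-kit-positive arrays, array 3 was highest for Epor, Csf2rb, Csf3r and Lifr and lowest for Csf2ra and Il3ra.

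**Figure D3:**
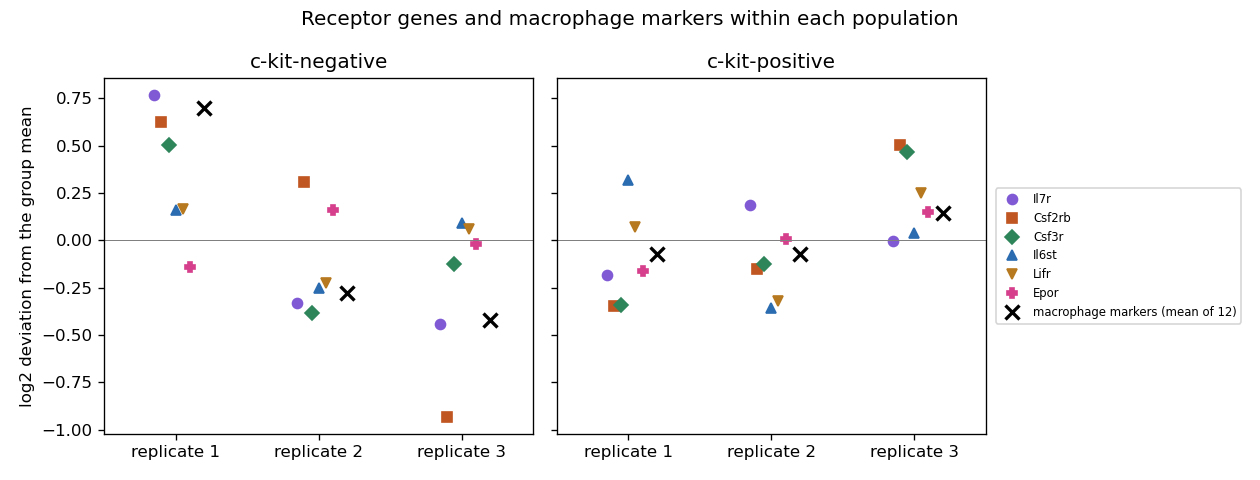
Log2 deviation of 6 receptor genes from their group mean on each array, for c-kit-negative (left) and c-kit-positive cells (right), with the mean of 12 macrophage markers as crosses. Il7r, Csf2rb, Csf3r, Il6st, Lifr and the macrophage markers each have their highest of the 3 c-kit-negative values on array 1. Epor has its lowest c-kit-negative value there.

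The rest of the pathway was described by 5 lists, in which 93 of 102 genes were measured. C-kit-positive cells had 2 of these 93 called higher and 7 called lower, where the background over all genes is 2.71% and 4.70%. The 7 became 4 without c-kit-negative array 1 or 3, or c-kit-positive array 1 or 3. List medians lay between 0.04 and 0.09, against 0.07 over all genes.

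Among 23 other receptors of the family 2 were called, both lower in c-kit-positive cells. Ghr, the growth hormone receptor, was at 6.61, 6.03 and 6.66 in c-kit-negative and 4.84, 5.59 and 4.94 in c-kit-positive cells, 2.48-fold lower (difference -1.31 ± 0.25, SE, adjusted p = 0.0157, limma). Il13ra1, a chain of the receptors for IL-4 and IL-13, was at 6.82, 5.99 and 6.63 against 4.74, 5.63 and 4.99, 2.57-fold lower (difference -1.36 ± 0.28, SE, adjusted p = 0.0234, limma). In both genes array 2 of each population was the nearest to the other population. Each call was lost without c-kit-negative array 1 or 3 or c-kit-positive array 1 or 3, with adjusted p between 0.0582 and 0.0794 (limma). Mesenchymal and smooth muscle markers stood lower in c-kit-positive cells, with 7 of 12 called, and means of 5.21 to 5.34 against 6.38 to 6.79; their part in these falls was not tested.

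Of 20 ligands 1 was called. Csf2, which encodes GM-CSF, was at 4.64, 4.81 and 5.02 in c-kit-negative and 4.19, 4.27 and 4.21 in c-kit-positive cells, a difference of -0.60 ± 0.14 (SE, adjusted p = 0.0417, limma). Its mean level was low, at percentile 22.2 of all genes. Its call was lost with any 1 of the 6 arrays left out (adjusted p from 0.0531 to 0.121, limma), while the difference stayed between -0.69 and -0.50. The ligands of the other receptors did not pass: the differences were 0.12 for Epo, -0.03 for Il3, 0.28 for Csf3, 0.09 for Il7, -0.30 for Il6 and 0.01 for Lif, with adjusted p between 0.360 and 0.985 (limma). Their mean levels were low too, from percentile 1.4 of all genes for Il3 to 38.2 for Lif, where array background can compress differences. Il6 was at 5.67, 4.22 and 3.02 on c-kit-negative arrays 1, 2 and 3 and at 4.02, 4.32 and 3.66 in c-kit-positive cells, so c-kit-negative cells held both its highest and its lowest value.

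Of 16 JAK kinases, STAT factors and adaptors 1 was called higher and 1 lower. Stat4, the STAT factor best known from IL-12 signalling in lymphocytes, was at 5.09, 4.82 and 5.14 in c-kit-negative and 6.48, 6.14 and 6.46 in c-kit-positive cells. The groups lay far apart, and Stat4 was 2.53-fold higher (difference 1.34 ± 0.16, SE, adjusted p = 0.00173, limma). Gab1, an adaptor that links gp130 and receptor tyrosine kinases to the phosphatase Ptpn11 and to PI3 kinase, was at 7.92, 8.15 and 8.01 against 6.97, 6.78 and 6.74. Gab1 was 2.29-fold lower in c-kit-positive cells, again with no overlap (difference -1.19 ± 0.14, SE, adjusted p = 0.0016, limma).

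The kinases and STAT factors that serve most of the receptors were not called. Jak2, the kinase of Epor and the beta common chain, differed by 0.21 ± 0.15 (SE; interval -0.15 to 0.56), and Jak1, the kinase of gp130 and Il7r, by -0.31 ± 0.15 (SE; interval -0.64 to 0.03). Stat5a and Stat5b, which act below Epor, the beta common chain and Il7r, differed by 0.26 ± 0.19 and 0.10 ± 0.18 (SE). Stat3, the main factor below gp130, differed by -0.19 ± 0.18 (SE). The adjusted p of these 5 genes lay between 0.280 and 0.808 (limma). Of them only Jak1 had groups that did not overlap, which was so for 26.8% of all genes. It was at 9.39, 9.25 and 9.27 in c-kit-negative and 9.04, 8.79 and 9.17 in c-kit-positive cells.

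Inhibitors of the pathway were measured for 19 genes, of which 1 was called. Socs2, a suppressor of cytokine signalling that is itself induced by STAT5 and restrains the growth hormone receptor, was at 6.98, 7.25 and 7.13 in c-kit-negative and 8.39, 8.60 and 8.42 in c-kit-positive cells. All c-kit-positive values stood above the c-kit-negative ones, and Socs2 was 2.55-fold higher (difference 1.35 ± 0.14, SE, adjusted p = 0.00088, limma). Its other probe set gave a difference of 1.10. On the same arrays 11 of 12 germ cell markers were called higher and their part in the Socs2 and Stat4 differences was not tested.

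Of 15 STAT target genes 3 were called, each lower in c-kit-positive cells. Ccnd1, which encodes cyclin D1 of the G1 phase, was at 8.65, 8.52 and 9.01 against 6.81, 6.32 and 6.89 in c-kit-positive cells, 4.16-fold lower (difference -2.06 ± 0.20, SE, adjusted p = 0.000611, limma). Ccnd2, the cyclin D2 gene, was 2.18-fold lower (adjusted p = 0.00225, limma) and Bcl2, which protects cells from apoptosis, also 2.18-fold (adjusted p = 0.00279, limma). None of the 3 genes overlapped between the groups. All 12 endothelial markers were lower on these arrays; many signals other than STAT factors act on these genes, and the part of cell makeup was not tested.

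**Figure D4:**
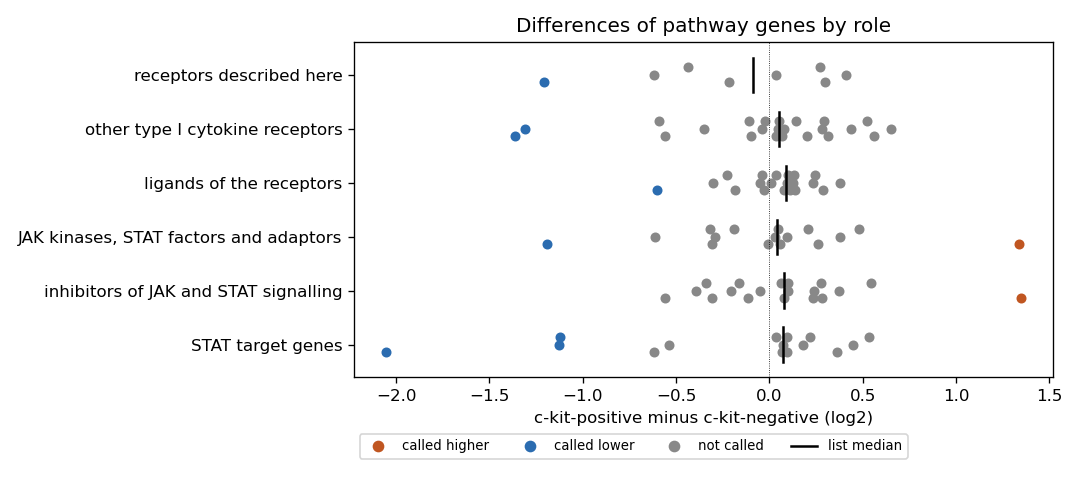
Difference in log2 value, c-kit-positive minus c-kit-negative, of each measured receptor described here and of the other pathway genes by role, with the list median as a black bar. Genes called higher are orange, genes called lower blue and the others grey. The medians lie between -0.09 and 0.09, with Ccnd1 farthest to the left and Socs2 and Stat4 farthest to the right.

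Genes nearest to Il7r in pattern were sought by the root mean square difference over the 6 arrays, each gene centred on its own mean. The nearest were Rtn1 (0.123), the lipoprotein lipase gene Lpl (0.160) and Bcl2a1c (0.166), a member of the Bcl2 family with close copies that the probes may also measure. Lpl was at 7.01, 6.20 and 6.15 on c-kit-negative arrays 1, 2 and 3 and 5.19, 5.31 and 5.50 on the c-kit-positive arrays. The 3 genes were picked for their likeness to Il7r on these same arrays, so their high value on c-kit-negative array 1 and their lower c-kit-positive levels, by -1.12 for Lpl and -1.18 for Bcl2a1c, follow from the choice and are given without a test.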

How the data were processed

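Total RNA of 6 sorted samples was measured on 1 array each. Per the labels' protocols, 5 ng of RNA per sample was amplified with a NuGEN whole-transcript kit before biotin labelling, a step that, like array background, can compress differences. The authors deposited log2 values from RMA, a tool named in the submitters' processing notes; its version is not given in the sources used here. Values between 1.22 and 13.7 with near-equal array medians (5.42 to 5.52) fit a log2 scale. There are no detection calls, so no gene is called absent, and precision is limited by the number of arrays.

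Of 34760 probe sets 21640 had 1 gene symbol, 1321 several and 11799 none listed. They covered 19937 genes; for a gene with several probe sets the one with the highest mean was used, and each receptor had 1. The comparison used lmFit and eBayes of limma 3.58.1 (R 4.3.3), two-sided, without filter or block, and p-values were adjusted over all genes by the Benjamini-Hochberg method. SDs are over n = 3 arrays per group; SEs and intervals use limma's moderated variance, which borrows from all genes. Simulated arrays with known changes served to check the fit. An exact test of 3 against 3 cannot go below p = 0.1, so none was run.

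The members, lists and tests were chosen with earlier results of these data known. Named genes are all receptors, up to 4 called genes per list with the smallest p, a set of ligands, kinases and STAT factors given as values, and the 3 genes nearest in pattern to each called receptor. Il2rb, Il6ra, Osmr, Spi1, Gata1, Car1, Ebf1 and other markers were named after their values were seen. The labels do not say whether same-numbered arrays of the populations came from the same sort, so their pairing is unknown. Deviations of same-numbered arrays from the group means correlated at 0.00071, 0.0239 and 0.0590, while 4 arrays correlated best with their own number in the other population. The main fit treated the arrays as unpaired, and with the replicate number as a block Il7r was not called (adjusted p = 0.0625, limma). Figures were drawn with matplotlib 3.10.9.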

Additional observations from a re-analysis of the deposited data

How the results depend on the processing

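Alternatives were centring arrays on their medians, quantile normalization, filters that removed the dimmest 30 or 50 percent of genes, other probe set rules, a robust prior with an intensity trend, weights for arrays, no variance moderation, the replicate number as a block, thresholds of 0.01 and 0.10, and leaving out each array. Under all of them 0 receptors were called higher. The count called lower, 1 as reported, became 0 at the 0.01 threshold, since the adjusted p of Il7r was 0.0491 (limma). It was also 0 without the dimmest 50 percent, which removed Il7r from the test. Median centring (Il7r difference -1.19, adjusted p = 0.0535), array weights (-1.24, 0.0516) and the probe set of lowest mean (-1.21, 0.0506) also gave 0, all in limma. Il7r has 1 probe set, so its own values were the same under the last rule. Without variance moderation the count was 0, with an Il7r SE of 0.40 against 0.30 as reported. The count ran from 0 to 1 with 1 array left out. With the replicate block it was 0 (Il7r adjusted p = 0.0625, limma), and 4 of 6 arrays correlated best with their own number in the other population.

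Pathway genes called higher, 2 as reported, numbered 1 without the dimmest 50 percent, which dropped Stat4 from the test, and 1 without variance moderation; leaving out 1 array gave 2 each time. Those called lower, 7 as reported, numbered 4 at the 0.01 threshold, 2 without variance moderation, 5 with the replicate block, which ended the calls of Il13ra1 and Csf2 (adjusted p = 0.0527 and 0.0722, limma), and 4 to 6 with 1 array left out. They numbered 6 without the dimmest 30 or 50 percent, filters that dropped Csf2 from the test. Of the receptors not called, Il3ra changed sign to -0.0349 without c-kit-negative array 1 and -0.0910 without c-kit-positive array 2, and ran up to 0.13 without the others in turn. Csf2rb changed to -0.0597 without c-kit-negative array 3 and ran up to 0.72. The other receptors kept their direction wherever they were tested. Median centring and quantile normalization moved the median of all genes by 0.02 and -0.03.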
